A study of Mus musculus with 4 samples.

Results

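The 10 genes described here encode lysosomal cathepsins, the proteases that break down proteins delivered to the lysosome. They are Ctsa, Ctsb, Ctsc, Ctsd, Ctsh, Ctsk, Ctsl, Ctss, Ctsw and Ctsz, and they were read from every probe whose accession belongs to one of them. This gave 16 probes of 56605 on the array, for 10 of the 23787 genes that could be named. All 16 probes were well above background on all 4 arrays, so none was lost to the filter on dim probes, which left 35776 probes for testing.

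Most cathepsins are cysteine proteases of the papain type, while Ctsd is an aspartic and Ctsa a serine enzyme. They are made as inactive precursors, carried to the lysosome mostly by mannose 6-phosphate receptors, and activated at low pH. Cystatins hold those of the papain type in check. In lung tumours cathepsins are known from macrophages and other immune cells as well as from the tumour cells, and secreted forms can cut matrix proteins.

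The tissue was lung tumour from KP mice, a genetic model of lung adenocarcinoma started by Cre recombinase. The 2 CD109-/- samples came from a male (replicate 1) and a female (replicate 2), and the 2 CD109+/+ samples from females. Every animal was of strain C57BL/6J and carried the KP background, and every one had received adenoviral Cre recombinase through the trachea 88 to 92 days before RNA was taken. Neither the promoter driving Cre nor the age of the mice is given in the sources used here, and the labels do not say whether each CD109+/+ sample came from its own animal or whether tumours were pooled, so p-values measure only the spread between these samples.

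Each sample lay on 1 single-colour array. Values are log2 processed signal relative to the array's 75th percentile, which was 677 and 688 on the CD109-/- arrays and 557 and 669 on the CD109+/+ arrays. Probes differ in how brightly they bind, so levels are compared between arrays and not between genes. Differences are CD109-/- minus CD109+/+ with limma's standard error (SE, n = 2 per genotype), and adjusted p-values are Benjamini-Hochberg over all tested probes. Cd109 itself read -7.98 and -7.87 in CD109-/- tumours, where it was not well above background, against -3.70 and -4.66 in CD109+/+ tumours, at least 2.92-fold lower (limma adjusted p = 0.299). The labelled tissue showed in the surfactant gene Sftpc, at 8.92 and 8.79 in CD109-/- tumours, against 9.11 and 8.96 in CD109+/+ tumours. Pearson correlations between arrays over all probes ran from 0.977 to 0.986, and the CD109-/- arrays were no closer to each other (0.977) than to the CD109+/+ arrays.

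None of the 16 cathepsin probes passed the adjusted threshold of 0.05 with limma, as for 0% of all probes tested. Their adjusted p-values ran from 0.681 to 0.995. At an unadjusted p under 0.05 there was 1 probe, that of Ctss, against 6.81% of all probes (3.87% higher and 2.94% lower). Counted by gene this was 1 of 10, against 7.53%. Taking each gene by its brightest probe, 7 of the 10 genes had higher and 3 lower values in CD109-/- tumours. Over all 16444 tested genes 50.3% had higher values. The median difference of the 10 genes was 0.39, beside 0.003 over all tested genes. Leaving out CD109+/+ replicate 2 brought that median to 0.096, and leaving out CD109+/+ replicate 1 to 0.26. In 5 of the 10 genes both CD109-/- arrays lay above both CD109+/+ arrays (Ctsa, Ctsd, Ctss, Ctsw and Ctsz), against 20.3% of all genes, and in 1 gene, Ctsh, below them, against 18.2%. By probe, 7 of 16 lay above (16.5% of all probes) and 3 of 16 below (21.2%), the last 3 being the Ctsh probes, which share a target. For 1 gene, exact permutation of 2 arrays against 2 reaches 0.333 at best (two-sided).

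**Figure D1:**
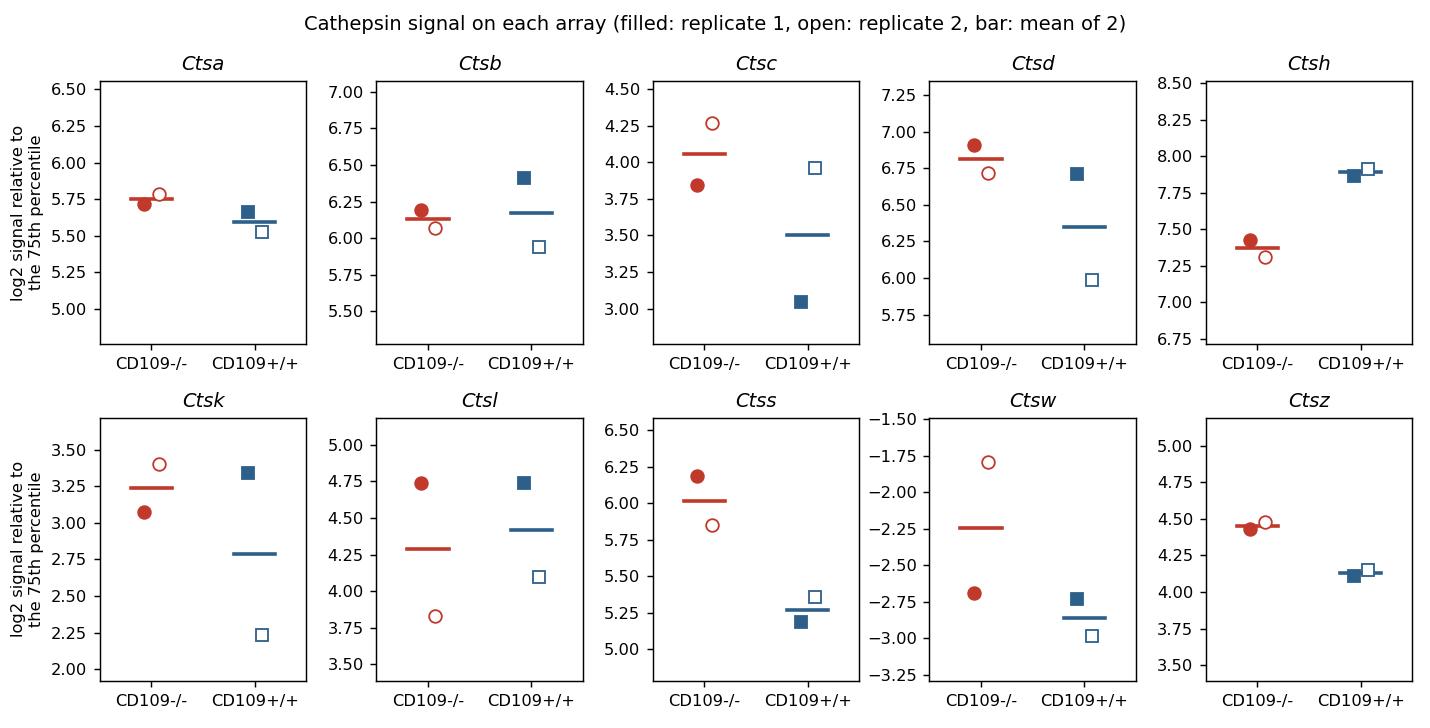
Log2 signal of each cathepsin gene (brightest probe) on each of the 4 arrays, CD109-/- left and CD109+/+ right, with a bar at the mean of 2 and the same height of axis in every panel. Ctss and Ctsz stood above, and Ctsh below, with a clear gap between genotypes, whereas Ctsa, Ctsd and Ctsw were separated by a small gap and Ctsb, Ctsc, Ctsk and Ctsl overlapped.

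Promoter sequences are shown for 4 members, from RefSeq's table of assembly GRCm38.p6, each running 5′ to 3′ from 250 bases before to 50 bases after a gene start. Ctss is shown as the member with the lowest p. Ctsk is its neighbour on chromosome 3, with no other protein-coding gene between them, and its genotypes overlapped. Ctsd and Ctsa are shown as lysosomal enzymes outside the papain type. Capitals mark CACGTG, the core of the element bound by TFEB, a transcription factor of lysosomal genes, and GAGGAA or its reverse complement, the core bound by the myeloid factor PU.1.
Ctss, GRCm38.p6 chr3:95526536-95526835, plus strand: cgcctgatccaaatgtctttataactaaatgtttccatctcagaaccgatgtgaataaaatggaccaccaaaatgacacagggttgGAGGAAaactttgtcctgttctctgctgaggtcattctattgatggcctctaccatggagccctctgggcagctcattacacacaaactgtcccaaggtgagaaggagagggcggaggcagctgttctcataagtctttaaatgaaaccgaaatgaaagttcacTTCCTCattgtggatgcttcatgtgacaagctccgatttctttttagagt
Ctsk, GRCm38.p6 chr3:95498960-95499259, plus strand: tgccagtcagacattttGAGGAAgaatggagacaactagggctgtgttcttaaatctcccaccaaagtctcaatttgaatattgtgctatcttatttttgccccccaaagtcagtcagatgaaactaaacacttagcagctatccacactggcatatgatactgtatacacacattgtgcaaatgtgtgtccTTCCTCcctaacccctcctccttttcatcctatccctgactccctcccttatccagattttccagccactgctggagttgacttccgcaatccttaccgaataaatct
Ctsd, GRCm38.p6 chr7:142387778-142388077, minus strand: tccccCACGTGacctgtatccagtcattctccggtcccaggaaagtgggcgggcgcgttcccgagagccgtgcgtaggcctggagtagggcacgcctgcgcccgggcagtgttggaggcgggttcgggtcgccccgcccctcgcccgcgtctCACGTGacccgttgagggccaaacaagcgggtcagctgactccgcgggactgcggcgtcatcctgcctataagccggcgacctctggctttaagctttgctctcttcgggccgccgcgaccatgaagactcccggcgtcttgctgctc
Ctsa (second start), GRCm38.p6 chr2:164833523-164833822, plus strand: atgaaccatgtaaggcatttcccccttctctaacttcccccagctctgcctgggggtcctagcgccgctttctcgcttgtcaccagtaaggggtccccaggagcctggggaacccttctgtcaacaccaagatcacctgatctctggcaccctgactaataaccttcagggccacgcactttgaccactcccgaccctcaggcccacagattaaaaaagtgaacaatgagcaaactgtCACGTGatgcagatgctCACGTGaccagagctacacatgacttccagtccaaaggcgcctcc

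The table held 8 such windows for 7 of the 10 genes, with 2 for Ctsa. Both strands were searched, and CACGTG reads the same on both. It was found in 3 of the 8 windows (the second of Ctsa, and those of Ctsd and Ctsl), against 7.15% of all 32851 windows. In Ctsd it lay at -245 and -98 and in Ctsa at -12 and 6, counted from the start site with its first base as 1. GAGGAA was found in 3 windows, those of Ctsc, Ctsk and Ctss, against 28.3% of all windows. In Ctss it lay at -164 and, on the opposite strand, at 1. A match describes only these letters in these windows.

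Ctss encodes cathepsin S, which trims the invariant chain from MHC class II molecules in antigen-presenting cells and stays active at neutral pH. Its probe gave 6.18 and 5.85 in CD109-/- tumours, against 5.19 and 5.36 in CD109+/+ tumours. Both CD109-/- arrays lay above both CD109+/+ arrays by at least 0.49, more than the distance between arrays of either genotype. The means were 6.02 ± 0.23 in CD109-/- tumours and 5.27 ± 0.12 in CD109+/+ tumours (SD, n = 2 each), a difference of 0.75 ± 0.25 with a 95% interval of 0.10 to 1.39. This is 1.68-fold, with an unadjusted p of 0.0317 and a limma adjusted p of 0.681. Of all tested probes 4.65% had a lower p. The unadjusted call was lost in the authors' processed values, which carry another scaling, with a Ctss difference of 0.72 (limma adjusted p = 0.939). It was also lost without CD109-/- replicate 1, the only male, at 0.58 (limma adjusted p = 0.725). The same held without CD109+/+ replicate 1, at 0.66, and without CD109+/+ replicate 2, at 0.83.

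The pathway in which cathepsin S acts was read beside Ctss. Of 8 tested genes of the MHC class II pathway 7 had higher values, with a median difference of 0.34, and 1 had an unadjusted p under 0.05 in that direction, against 5.05% of all genes. Leaving out either of 2 arrays turned the sign of this median. It was -0.15 without CD109-/- replicate 2, -0.066 without CD109+/+ replicate 1 and 0.90 without CD109-/- replicate 1. Cd74, the invariant chain, had 5.84 and 6.61 in CD109-/- tumours, against 5.88 and 6.44 in CD109+/+ tumours. The class II chain gene H2-Ab1 had 6.33 and 7.33, against 6.01 and 6.83. In both genes the replicate 2 array was the higher one in each genotype and the genotypes overlapped, unlike Ctss. The differences were 0.07 ± 0.37 for Cd74, 0.58 ± 0.62 for H2-Aa, 0.41 ± 0.47 for H2-Ab1 and 0.73 ± 0.43 for H2-DMa, which loads peptides.

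Ctsh encodes cathepsin H, an aminopeptidase that takes part in the maturation of surfactant protein B in alveolar type 2 cells. All 3 of its probes had lower values in CD109-/- tumours. The brightest probe gave 7.43 and 7.31 in CD109-/- tumours, against 7.86 and 7.91 in CD109+/+ tumours, and the other probes gave 4.67 and 4.32, against 4.88 and 5.16, and 3.57 and 3.40, against 3.79 and 3.87. On all 3 probes both CD109-/- arrays lay below both CD109+/+ arrays. The differences were -0.52 ± 0.23, -0.53 ± 0.26 and -0.35 ± 0.23. The brightest probe had an unadjusted p of 0.0711 and a limma adjusted p of 0.757, with a 95% interval of -1.10 to 0.06. Leaving out any one array gave -0.58 to -0.46 for that probe.

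Markers of alveolar type 2 cells were read beside Ctsh. Of 10 tested markers 4 had higher and 6 lower values, with a median difference of -0.12 (-0.099 to 0.031 with 1 array left out). In 3 of them both CD109-/- arrays lay below both CD109+/+ arrays, as for Ctsh (18.2% of all genes), and in 2 above (20.3%). None had an unadjusted p under 0.05 (7.53% of all genes), and neither had Ctsh. Sftpb, the substrate of cathepsin H, had 7.72 and 7.23 in CD109-/- tumours, against 8.01 and 7.59 in CD109+/+ tumours, a difference of -0.33 ± 0.30. Sftpc differed by -0.18 ± 0.23, the aspartic protease gene Napsa by -0.10 ± 0.40 and the lamellar body gene Lamp3 by 0.54 ± 0.31. The summed signal of the list was 1415 and 1354 times the array's 75th percentile in CD109-/- tumours, against 1459 and 1448 times in CD109+/+ tumours. In whole tumours fewer cells of a type and less RNA per cell cannot be told apart. Among epithelial markers Epcam differed by 0.01 ± 0.35, Cdh1 by 0.20 ± 0.42, Krt8 by -0.43 ± 0.43 and Krt18 by -0.46 ± 0.39. Of the 6 epithelial markers tested 3 were higher and 3 lower, with a median difference of -0.11 (-0.53 to 0.35 with 1 array left out) and summed signals of 393 and 256 in CD109-/- tumours, against 559 and 304 in CD109+/+ tumours. The part of either cell type in the Ctsh values was not tested.

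The endopeptidases cathepsin B and cathepsin L, the aspartic protease cathepsin D and the serine carboxypeptidase cathepsin A carry out bulk protein breakdown in most cells. Ctsd had 6.91 and 6.72 in CD109-/- tumours, against 6.71 and 5.98 in CD109+/+ tumours. Ctsa had 5.72 and 5.79, against 5.67 and 5.53. In both genes the genotypes were apart by only 0.01 and 0.05, much less than the distance between the CD109+/+ arrays. The differences were 0.47 ± 0.33 for Ctsd and 0.16 ± 0.23 for Ctsa. With CD109+/+ replicate 2 left out that of Ctsd was 0.11, and with CD109+/+ replicate 1 left out 0.83. The 95% interval was -0.37 to 1.31 for Ctsd and -0.43 to 0.74 for Ctsa.

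Ctsb had 6.19 and 6.07 in CD109-/- tumours, against 6.41 and 5.94 in CD109+/+ tumours, so the CD109-/- arrays lay between the CD109+/+ arrays. The difference was -0.04 ± 0.27, with a 95% interval of -0.74 to 0.65. Ctsl had 4.74 and 3.83, against 4.74 and 4.10, with replicate 1 the brighter array in each genotype and the genotypes overlapping. This Ctsl probe was printed in 10 spots per array, whose SD within an array was 0.084 and 0.078 on the CD109-/- arrays and 0.043 and 0.046 on the CD109+/+ arrays, far below the distance between arrays of 1 genotype. The Ctsl difference was -0.13 ± 0.42, and a further, dimmer probe gave 0.10 ± 0.32.

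**Figure D2:**
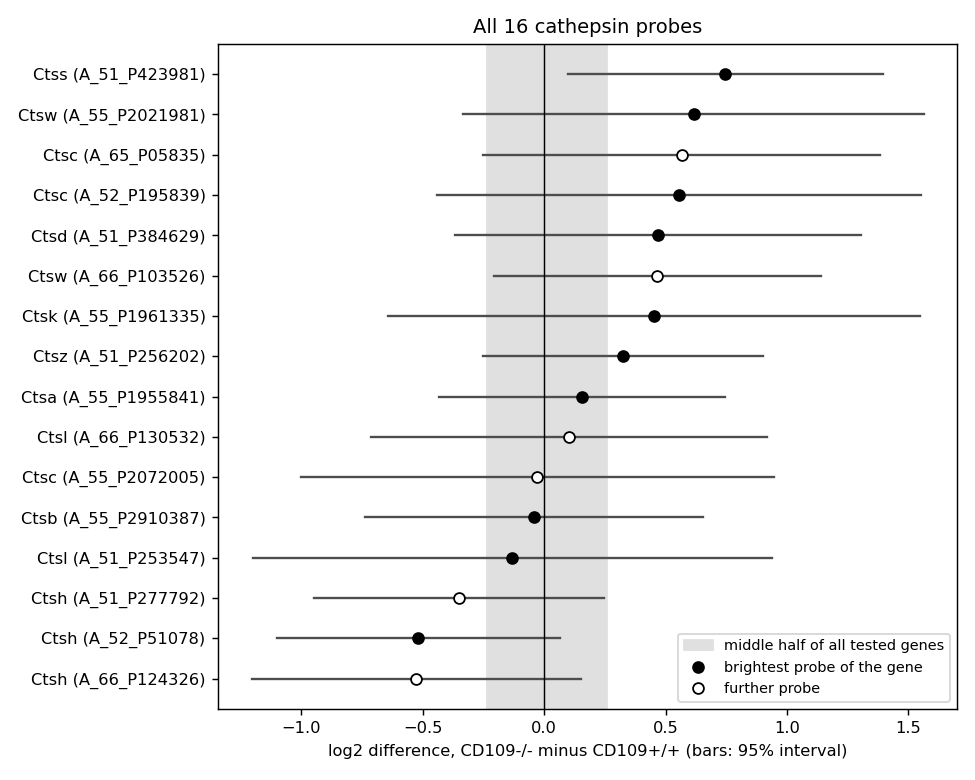
Log2 difference, CD109-/- minus CD109+/+, of all 16 cathepsin probes with limma's 95% interval, sorted by size; filled points are the brightest probe of a gene, and the grey band runs from -0.24 to 0.26, the quartiles over all tested genes. The interval of Ctss (0.10 to 1.39) was the only one of the 16 that left out 0.

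Ctsc encodes cathepsin C, a dipeptidyl peptidase that activates the serine proteases of cytotoxic lymphocytes, neutrophils and mast cells. Its brightest probe gave 3.85 and 4.27 in CD109-/- tumours, against 3.04 and 3.96 in CD109+/+ tumours, with overlapping genotypes. The difference was 0.56 ± 0.39, and it was 0.099 when CD109+/+ replicate 1 was left out and 1.01 when CD109+/+ replicate 2 was. The other 2 probes carry the accession of another transcript of the gene, and they disagreed. One gave 1.31 and 1.31, against 0.39 and 1.11, a difference of 0.57 ± 0.32, and the other gave -0.77 and -0.16, against -0.82 and -0.06, a difference of -0.03 ± 0.38. Both CD109-/- arrays lay above the CD109+/+ arrays on the first of these probes only.

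Of the granule protease genes that depend on cathepsin C, 5 of 9 could be tested. One of these 5 had a higher value, and 4 had lower values, with a median difference of -0.29. Leaving out CD109-/- replicate 2 turned that median to 0.29. Gzma, a granzyme of cytotoxic lymphocytes, had -0.32 and -1.44 in CD109-/- tumours, against -1.91 and -2.41 in CD109+/+ tumours, a difference of 1.28 ± 0.45 with an unadjusted p of 0.0352 and a limma adjusted p of 0.691. Elane, the neutrophil elastase gene, differed by -0.08 ± 0.34 and the mast cell tryptase gene Tpsb2 by -0.29 ± 0.38. Ctsg, which encodes the neutrophil granule protease cathepsin G, read -5.99 and -6.10 in CD109-/- tumours, where it was not well above background, against -5.45 and -2.62 in CD109+/+ tumours. That is at least 3.24-fold lower (limma adjusted p = 0.757), and 1 of the CD109+/+ arrays was itself close to the CD109-/- values.

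Ctsw encodes cathepsin W, known from cytotoxic T and NK cells. Its probes gave -2.69 and -1.80 in CD109-/- tumours, against -2.73 and -2.99 in CD109+/+ tumours, and -3.95 and -3.72, against -4.12 and -4.49. On both probes the CD109-/- arrays lay above the CD109+/+ arrays, on the brighter one mainly through CD109-/- replicate 2. The differences were 0.62 ± 0.37 and 0.47 ± 0.26, with limma adjusted p-values of 0.795 and 0.790. Without CD109-/- replicate 2 the brighter probe differed by 0.17, and without CD109-/- replicate 1 by 1.06 (limma adjusted p = 0.501).

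Markers of T and NK cells were read beside Ctsw. Of 14 markers 10 could be tested, of which 9 had higher values and 5 an unadjusted p under 0.05 in that direction, against 5.05% of all genes, with a median difference of 1.39, and 0 in the other direction, against 2.48% of all genes. Their summed signal was 3.53 and 4.79 times the 75th percentile in CD109-/- tumours, against 2.47 and 2.21 times in CD109+/+ tumours. The CD109-/- arrays did not rank alike across the markers. Nkg7 had -1.88 and -3.19 in CD109-/- tumours, against -4.17 and -3.88 in CD109+/+ tumours. Cd3d had -1.17 and -1.10, against -3.10 and -2.43, and Cd3g -2.77 and -2.62, against -4.59 and -3.88. Ctsw, Cd3d, Cd3g and the summed signal were higher in CD109-/- replicate 2, and Nkg7 and Cd3e in CD109-/- replicate 1. In 8 of the 10 tested markers both CD109-/- arrays lay above both CD109+/+ arrays (20.3% of all genes). In 1, the granule gene Prf1, they lay below (18.2%), with a difference of -0.33 ± 0.27. The T cell receptor gene Cd3e differed by 0.30 ± 0.25 and the granule gene Nkg7 by 1.49 ± 0.48. The receptor genes Cd3d and Cd3g differed by 1.63 ± 0.31 and 1.54 ± 0.32. Cd8a, Ncr1, Klrb1c and Eomes stayed untested because neither genotype had both arrays well above background. The part of these cells in the Ctsw values was not tested.

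Ctsk encodes cathepsin K, the collagen-cutting protease of osteoclasts, also made by activated fibroblasts and macrophages. It had 3.08 and 3.40 in CD109-/- tumours, against 3.34 and 2.23 in CD109+/+ tumours. The spread came from the CD109+/+ arrays, and the genotypes overlapped. The difference was 0.45 ± 0.43 (95% interval -0.64 to 1.55), and -0.10 without CD109+/+ replicate 2.

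Of 10 fibroblast markers all 10 had higher values, 4 with an unadjusted p under 0.05 (5.05% of all genes), and their summed signal was 55.4 and 49.3 in CD109-/- tumours, against 37.5 and 32.4 in CD109+/+ tumours. Their median difference was 0.60, with Pdgfra at 1.77 ± 0.37, Lum at 1.71 ± 0.24, Dcn at 0.40 ± 0.34 and Col1a1 at 0.06 ± 0.40. Of 5 tested osteoclast-type genes 4 had higher values, and none had an unadjusted p under 0.05 (7.53% of all genes). Their median of 0.43 became 0.078 with CD109+/+ replicate 2 left out and 0.18 with CD109-/- replicate 1 left out. Acp5, an acid phosphatase, differed by 0.43 ± 0.39, Mmp9, a gelatinase, by 1.33 ± 1.46, Nfatc1, an osteoclast transcription factor, by -0.21 ± 0.25 and Dcstamp, which acts in cell fusion, by 0.80 ± 0.37. The part of these cells in the Ctsk values was not tested.

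Ctsz encodes cathepsin Z, a carboxypeptidase abundant in myeloid cells. It had 4.43 and 4.48 in CD109-/- tumours, against 4.11 and 4.15 in CD109+/+ tumours. Arrays of 1 genotype lay within 0.05 of each other, and the gap between genotypes was 0.28. The difference was 0.33 ± 0.22, with an unadjusted p of 0.206 and a limma adjusted p of 0.815, since limma's error draws on the spread of all probes. With any 1 array left out the Ctsz difference ran from 0.30 to 0.36.

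Macrophage markers were higher on the CD109-/- arrays beside Ctss, Ctsz and Ctsd. All 14 of 14 had higher values, 10 without overlap (20.3% of all genes) and 5 with an unadjusted p under 0.05 (5.05% of all genes), and the median difference was 0.56. The macrophage surface receptor gene Adgre1 differed by 0.94 ± 0.26, the lysosomal glycoprotein gene Cd68 by 0.54 ± 0.24 and the mannose receptor gene Mrc1 by 1.21 ± 0.23. The growth factor receptor gene Csf1r differed by 0.49 ± 0.23, but a further probe of it gave 0.004. The summed signal was 205 and 241 in CD109-/- tumours, against 211 and 133 in CD109+/+ tumours, so that the sums overlapped. Of the 14 markers 1, Cd163, was below that detection level in both CD109+/+ samples. With any 1 array left out the macrophage median stayed between 0.46 and 0.72.

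Of 6 tested dendritic cell markers 5 had higher values, 4 of them at an unadjusted p under 0.05 (5.05% of all genes), with a median of 1.13. Their summed signals were 1.12 and 1.26 in CD109-/- tumours, against 0.645 and 0.617 in CD109+/+ tumours. Flt3 differed by 2.20 ± 0.52, Clec9a by 1.32 ± 0.26, Zbtb46 by -0.40 ± 0.33 and Ccr7 by 0.95 ± 0.25, while Xcr1 was too dim to be tested. Of 4 B cell markers 3 had lower values, with a median of -0.10 (-0.33 to 0.17 with 1 array left out). Their summed signals were 1.41 and 2.72, against 1.39 and 2.83. Cd79a differed by -0.20 ± 0.27, Cd79b by -0.03 ± 0.52 and Ms4a1 by -0.17 ± 0.23, with a further Ms4a1 probe at 1.53. The part of myeloid cells in the Ctss, Ctsz and Ctsd values was not tested.

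Other lysosomal genes were read as the setting in which the cathepsins act, and none of them passed limma's adjusted threshold. Of 15 genes of the lysosomal membrane and its acidification 14 had higher values, 12 without overlap between genotypes (20.3% of all genes), and the median difference was 0.48. Lamp1, a major membrane glycoprotein, differed by 0.23 ± 0.27, Lamp2 by 0.62 ± 0.27 and Cd63 by -0.21 ± 0.24. Atp6v0d2, a proton pump subunit of macrophages and osteoclasts, had 1.89 and 1.74 in CD109-/- tumours, against 0.86 and 0.84 in CD109+/+ tumours, a difference of 0.97 ± 0.23 (limma adjusted p = 0.588).

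Of 23 other lysosomal hydrolases 18 had higher values, 13 without overlap (20.3% of all genes), and 5 lower values, 2 without overlap (18.2%). The median difference was 0.34, or 0.22 with CD109-/- replicate 1 left out. Their summed signal was not higher, at 354 and 369 in CD109-/- tumours, against 377 and 370 in CD109+/+ tumours. Hexa, which encodes a subunit of hexosaminidase, differed by 0.39 ± 0.24, the glucuronidase gene Gusb by 0.48 ± 0.31 and the acid lipase gene Lipa by 0.52 ± 0.42. All 10 sorting and partner genes were tested, and 9 of 10 had higher values with a median of 0.31. The mannose 6-phosphate receptor genes M6pr and Igf2r differed by -0.03 ± 0.23 and 0.38 ± 0.27. Gnptab and Gnptg, whose products add the sorting tag, differed by 0.33 ± 0.33 and 0.17 ± 0.29, with a further Gnptab probe at -0.099.

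All 4 transcription factor genes of the lysosomal programme had higher values, with a median of 0.43 (0.15 with CD109+/+ replicate 1 left out, 0.73 with CD109+/+ replicate 2 left out). Tfec, which is known from macrophages, had -1.39 and -1.79 in CD109-/- tumours, against -2.92 and -2.79 in CD109+/+ tumours, a difference of 1.27 ± 0.26 (limma adjusted p = 0.573). Tfeb differed by 0.14 ± 0.26, with a further probe at -0.26, Tfe3 by 0.20 ± 0.23 and Mitf by 0.66 ± 0.41.

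**Figure D3:**
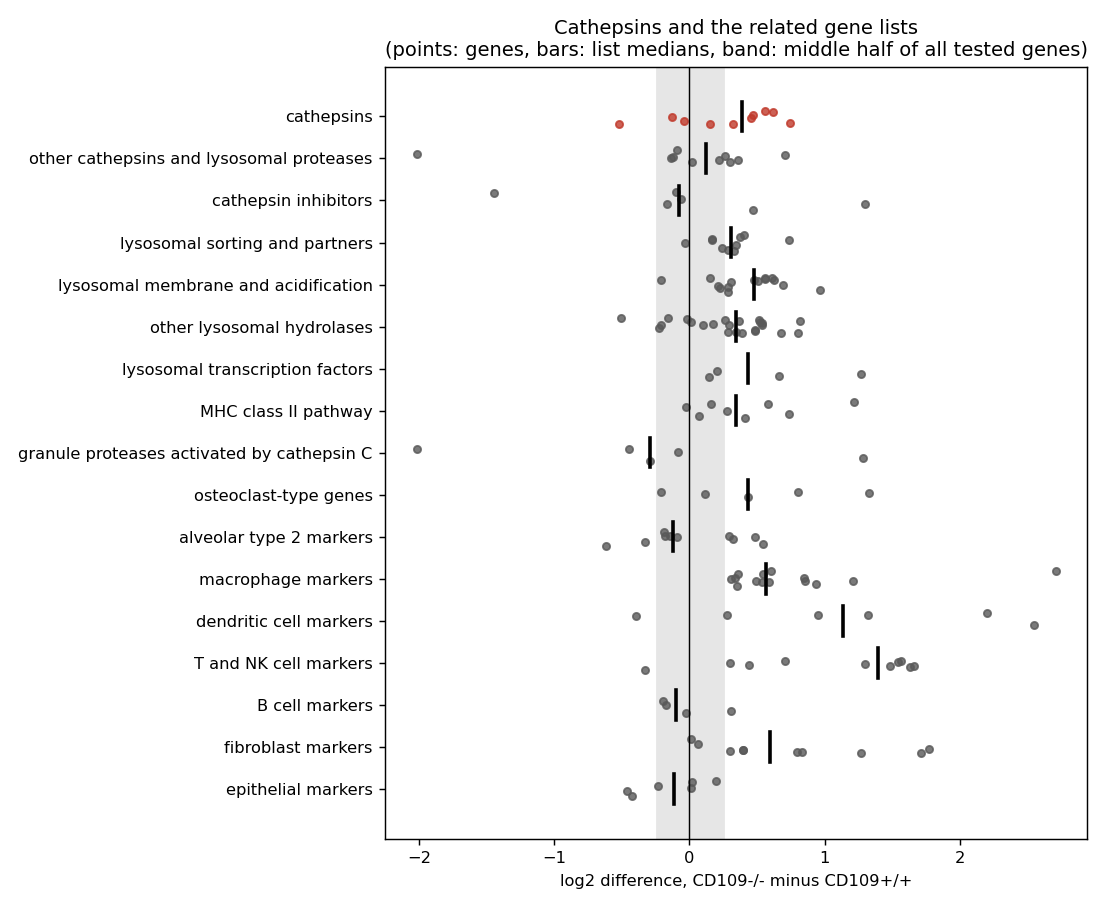
Log2 difference, CD109-/- minus CD109+/+, of each gene (points) in the cathepsin group and in the 16 related lists, with list medians as black bars and the grey band from -0.24 to 0.26, the quartiles over all tested genes. The cathepsin median was 0.39. Higher medians were 0.48 for membrane and acidification genes, 0.56 for macrophage, 0.60 for fibroblast, 1.13 for dendritic cell and 1.39 for T and NK cell markers. Lower ones included 0.12 for other cathepsins and lysosomal proteases and -0.12 for alveolar type 2 markers.

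Among proteases outside the 10 members, 6 of 10 had higher values, and the median was 0.12 (0.061 to 0.33 with 1 array left out). Of these 0 had an unadjusted p under 0.05, against 7.53% of all genes. Legumain (Lgmn), which processes several cathepsin precursors, differed by 0.22 ± 0.26, Ctsf by 0.36 ± 0.45 and Ctso by -0.12 ± 0.28. Ctse, an aspartic protease best known from the stomach, had 4.81 and 0.45 in CD109-/- tumours, against 3.59 and 1.94 in CD109+/+ tumours, so its values spread far more within than between genotypes (-0.13 ± 1.49). The peptidase genes Tpp1, Scpep1, Dpp7 and Prcp differed by 0.02 ± 0.28, 0.26 ± 0.25, 0.71 ± 0.28 and 0.30 ± 0.23.

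Of 9 cathepsin inhibitor genes 6 were tested, of which 2 had higher and 4 lower values, none at an unadjusted p under 0.05 (7.53% of all genes). Their median was -0.08 (-0.40 to 0.29 with 1 array left out). Cst3, the secreted cystatin C, had 5.06 and 5.42 in CD109-/- tumours, against 4.62 and 4.92 in CD109+/+ tumours, a difference of 0.47 ± 0.27. Cst7, a cystatin of immune cells that acts on cathepsin C, had -2.16 and -5.29, against -4.67 and -5.37, so that 1 CD109-/- array alone stood high. Cstb and Cst6 differed by -0.10 ± 0.39 and -0.16 ± 0.46. The stefin genes Stfa1 and Stfa2 differed by -1.44 ± 0.58 and -0.06 ± 0.60, Stfa1 being detected on only 1 of the 2 CD109-/- arrays, and signals of these near-identical genes may mix.

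Genes whose 4-array profile lay closest to a member were listed as a description. Profiles were centred on their own mean, and the distance is the root mean square over the 4 arrays in log2 units. For Ctss these were Fcer1g, a receptor subunit of myeloid cells, at 0.037, Vamp4 at 0.039 and Cyp2f2 at 0.041, with 636 genes within 0.2. For Ctsk they were Rfx4, Usb1 and Thy1 (0.038, 0.057 and 0.065, with 72 genes within 0.2). For Ctsh they were Spata31, Pkd2l2 and Atxn2l (0.016, 0.034 and 0.034, with 1708 within 0.2), and for Ctsw Runx1t1, Trp53 and Tmem140 (0.030, 0.043 and 0.044, with 214 within 0.2). With 4 arrays many genes share any one profile.

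**Figure D4:**
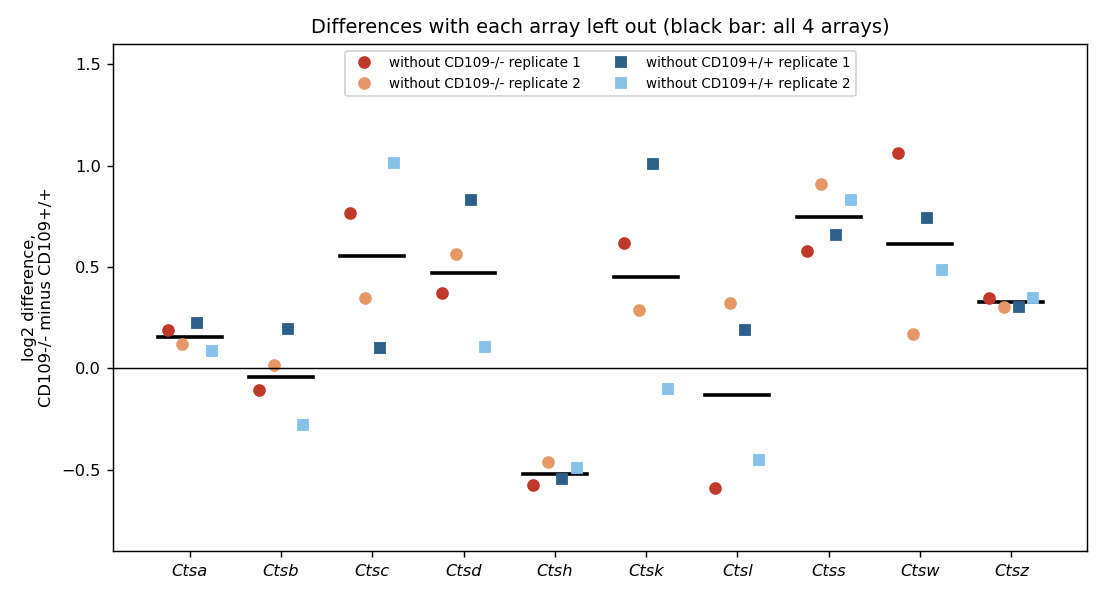
Log2 difference of each cathepsin gene with each of the 4 arrays left out in turn (points), beside the value from all 4 arrays (black bar). Ctss (0.58 to 0.91), Ctsz (0.30 to 0.36) and Ctsa (0.09 to 0.22) stayed above 0 and Ctsh (-0.58 to -0.46) below 0, as did Ctsc (0.099 to 1.01), Ctsd (0.11 to 0.83) and Ctsw (0.17 to 1.06) above 0, while Ctsb, Ctsk and Ctsl changed sign.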

How the data were processed

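Total RNA of lung tumours (100 ng) was labelled with Cy3, per the labels' protocols. The deposited scanner output came from Agilent Feature Extraction 12.1.0.3, per the file headers, and holds intensity values on a linear scale, background-subtracted and not scaled between arrays, on an array designed on build mm9. A table deposited by the authors holds the same intensity values times 1 constant per array (1.04 and 1.08 for CD109-/-, 1.19 and 1.21 for CD109+/+, with column medians of 59.5 and 69.2, and 58.8 and 76.1). How the authors set these constants is unknown here, and the table served as an alternative.

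Spots with an outlier mark (58 to 73 per array) were left out, spots of a probe were averaged, and log2 values were taken relative to the 75th percentile. No spot was saturated (0 on each array). A probe was tested when well above background on both arrays of a genotype. Probes were named through RefSeq accessions (GRCm38.p6 table, 34566 probes matched), and a gene was read by its brightest tested probe. Where a gene was too dim for that on both arrays of 1 genotype, the fold is a bound against the lowest signal well above background. limma 3.58.1 in R 4.3.3 (lmFit, eBayes, two-sided, no covariate, 2 residual and 3.02 prior degrees of freedom) was run over all 35776 probes and tested on simulated data. The small number of arrays limits the precision. All arrays lay on 1 slide and in 1 scan session, so no batch could be fitted.

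The members and lists were chosen with earlier results of these data known. Genes named were all 10 cathepsins, Cd109, all protease and inhibitor genes, the first 4 tested genes of every other list as written, and the 3 nearest profiles of Ctsh, Ctsk, Ctss and Ctsw. Some genes under this rule are not reported here. Cd163, Prf1 and the untested markers were named because a count rests on them. Alternatives were normexp (offset 50, on median signals), quantile and median scaling, the deposited table, other filters, a variance trend, a block for the replicate number, a sex covariate, averaging the probes of a gene and leaving out each array.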

Additional observations from a re-analysis of the deposited data

How the results depend on the processing

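Of the 10 cathepsin genes, none passed limma's adjusted threshold under any of the 13 alternatives, and Ctsa, Ctsc, Ctsd, Ctsh, Ctss, Ctsw and Ctsz kept their direction in all of them. Ctsb turned to 0.0087 with quantile normalization, 0.019 without CD109-/- replicate 2 and 0.19 without CD109+/+ replicate 1. Ctsl turned to 0.32 without CD109-/- replicate 2 and 0.19 without CD109+/+ replicate 1, and Ctsk to -0.10 without CD109+/+ replicate 2. With an array left out Ctsb ran from -0.28 to 0.19, Ctsl from -0.59 to 0.32 and Ctsk from -0.10 to 1.01. The causes were not tested. Cathepsin probes at an unadjusted p under 0.05 numbered 2 with normexp and 2 with a variance trend (Ctss, and Ctsh besides, by gene), and 0 with the authors' processed values. They numbered 0 to 1 with an array left out: 1 without either CD109-/- replicate (Ctsw without replicate 1, Ctss without replicate 2) and 0 without either CD109+/+ replicate. With sex as a covariate Ctsw differed by 1.06 and Ctss by 0.58, the same as without CD109-/- replicate 1. That array is the only male, so sex cannot be told apart from it, and these alternatives are not separate. The median of the 10 genes ran from 0.096 (without CD109+/+ replicate 2) to 0.36 with an array left out, and was 0.26 without CD109+/+ replicate 1. Over all probes, 0 to 2 passed the adjusted threshold with an array left out, the 2 without CD109-/- replicate 2. Probes at an unadjusted p under 0.05 numbered 2438 with all arrays, 4580 without CD109-/- replicate 2 and 1043 without CD109+/+ replicate 1. With the replicate number as a block 3949 had an unadjusted p under 0.05, 0 passed the adjusted threshold and 1 cathepsin probe, Ctss, had an unadjusted p under 0.05. Same-numbered arrays deviated together (r = 0.35 over probes), but the labels give only a shared number. A genotype left with 1 array was given the spread of the rest.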

Other observations

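Some lysosomal genes outside the naming rule had an unadjusted p under 0.05 with limma and were picked after their values were seen. In all, 4 of 58 genes in the sorting, membrane, hydrolase and other protease lists were called higher in this way, against 5.05% of all genes. Pla2g15, a lysosomal phospholipase, had 0.98 and 0.83 in CD109-/- tumours, against 0.00 and 0.17 in CD109+/+ tumours, a difference of 0.82 ± 0.23 (SE, n = 2 per genotype; limma adjusted p = 0.630). Ostm1, a partner of the chloride transporter CLC-7, differed by 0.69 ± 0.23, and Psap, the precursor of the saposins, by 0.74 ± 0.27. In each of these genes both CD109-/- arrays lay above both CD109+/+ arrays (20.3% of all genes). This adds no support, since the genes were picked by their p in the same arrays.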
